A study of Arabidopsis thaliana with 6 samples.

Results

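The 6 genes described here are Arabidopsis thaliana loci known to mark iron deficiency in roots: AT3G13610, AT3G12900, AT1G47400, AT3G07720, AT5G05250 and AT3G61930. They were taken from a list of loci, and a probe set stood for a gene only if the array annotation named that locus alone. All 6 had such a probe set, 1 for each gene, among the 13333 genes that the annotation named in this way. Roots came from 4-week-old plants of the Col-0 accession in hydroponic culture, exposed to 200 µM cadmium for 6 h or kept without it, and no group carried a mutation or transgene. Each group had 3 Affymetrix ATH1 arrays, numbered 1 to 3 in the titles and called biological replicates there. The sample descriptions number the same arrays 3, 1 and 2, in both groups alike, so the pairs are the same under either numbering and the numbers used here are those of the titles. Values are MAS5 signals, a linear brightness for each probe set.

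Plants such as Arabidopsis take up iron by acidifying the soil, reducing ferric iron at the root surface and importing the ferrous form. Roots short of iron also secrete coumarins, phenolic compounds made from phenylpropanoid precursors that dissolve and reduce ferric iron. A cascade of bHLH transcription factors switches these genes on, ubiquitin ligases of the BRUTUS group restrain it, and IRONMAN peptides relieve that restraint. Cadmium enters roots partly through the iron importer, and the comparison asks which root transcripts differ after exposure to it.

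The arrays of replicate 2 stood apart. Their 2% trimmed mean signal was 227 on the cadmium and 216 on the control array, whereas it was 500 on each of the other 4 arrays. One GAPDH control gave a 3' signal above the 5' signal by 1.67 (cadmium) and 2.02 (control) on the log2 scale in replicate 2, against -0.60 to -0.19 on the other arrays. A second GAPDH control set replicate 2 apart less, with 0.38 (cadmium) and 0.19 (control) against -0.10 to 0.05. One actin control gave 3.22 (cadmium) and 2.05 (control) against 0.07 to 0.34. Another actin control gave 3.72 (cadmium) and 3.46 (control) against 2.41 to 2.99. One ubiquitin control gave 1.26 (cadmium) and 1.05 (control) against 0.65 to 1.03. Another ubiquitin control was not higher in replicate 2, with 0.37 (cadmium) and -0.02 (control) against 0.08 to 0.59. Differences were therefore fitted over all 6 arrays and again within replicates 1 and 3, and replicate 2 was read as 1 pair. Its pair ran against both other pairs in most tested probe sets, with cadmium higher in replicates 1 and 3 and lower in replicate 2 for 40.9% and the reverse for 18.8%. Whether the group labels of a pair were exchanged was not tested, and each difference by replicate is one between arrays as labelled. Of 14 root markers, 5 had a probe set that the annotation named with that locus alone. PYK10, an abundant beta-glucosidase of roots that also stands among the listed coumarin genes, had signals of 12364, 3450 and 12674 on cadmium arrays 1, 2 and 3 and 12847, 5157 and 10871 on control arrays 1, 2 and 3. The 3 shoot photosynthesis genes with such a probe set, of 15 listed, summed to 2310, 377 and 1960 on the cadmium and 1924, 315 and 1827 on the control arrays. PRK, an enzyme of the Calvin cycle, had the widest difference of these 3 within replicates 1 and 3, 0.41 (adjusted p = 0.421, limma). With each array rescaled to a 2% trimmed mean of 500, all 3 genes stayed lower in replicate 2 than on the other 4 arrays. PRK was then at 72.9 (cadmium) and 61.9 (control) in replicate 2, against 261 to 440. The cause was not tested.

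In replicates 1 and 3, 5 of the 6 genes had a lower mean log2 signal on the cadmium arrays, AT3G61930 by only -0.17. Of these, 1 gene, AT3G13610, passed the test, where 3.24% of all tested probe sets passed as lower. In replicate 2, 5 of the 6 genes were higher on the cadmium array in the deposited signals, and 4 of 6 once the arrays were rescaled to 1 trimmed mean, since the pair of AT1G47400 was nearly equal. The shares of all tested probe sets by direction alone were not counted, so these direction counts are not read as a result about the 6 genes. Over all 6 arrays none of the 6 genes differed between the groups past the threshold, nor did any other tested probe set.

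**Figure D1:**
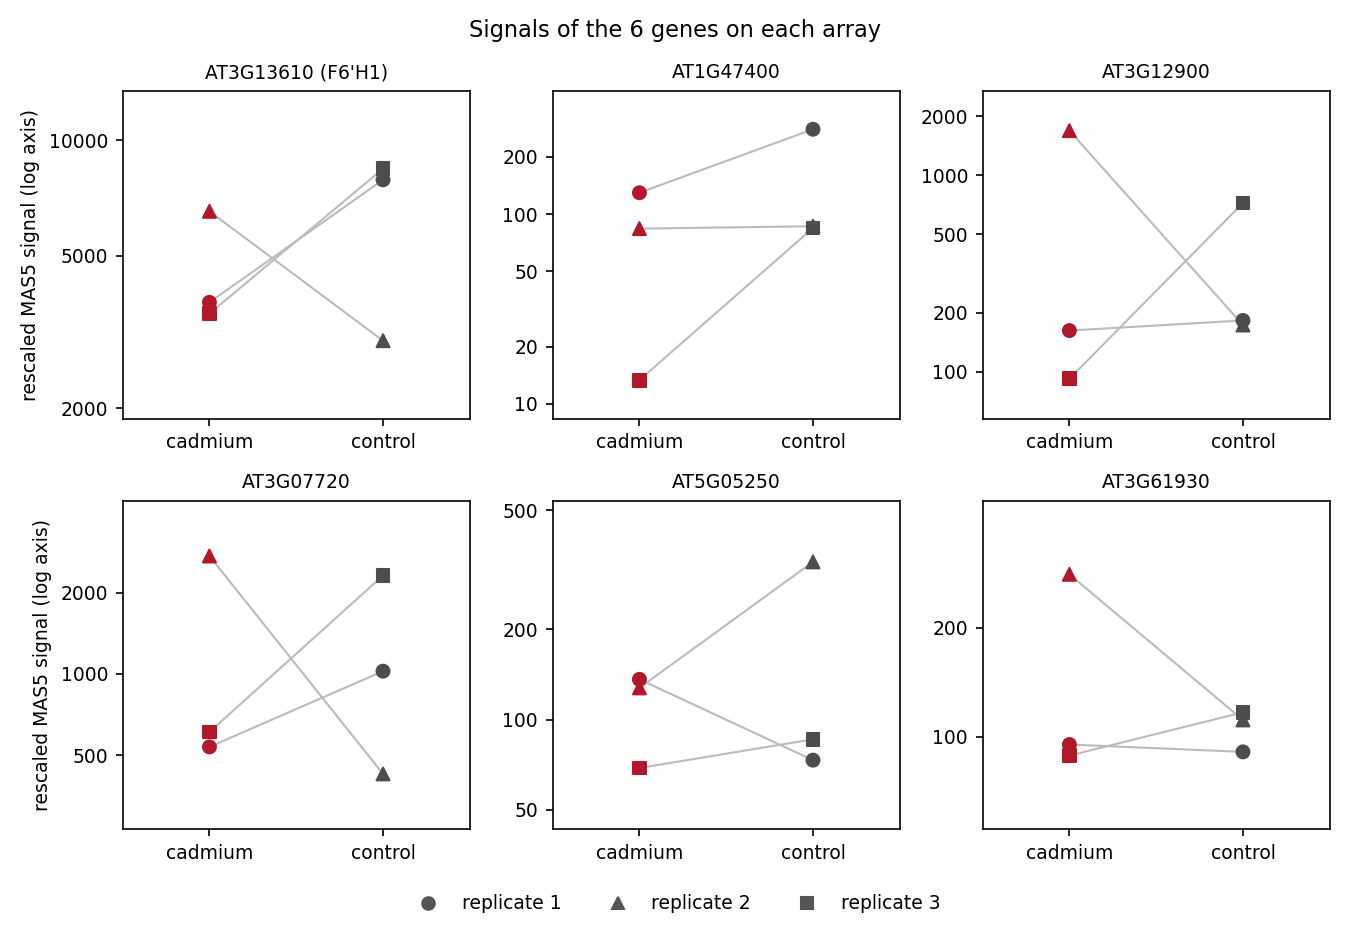
Signal of each gene on each of the 6 arrays, on log axes, after each array was rescaled to a 2% trimmed mean of 500; cadmium is red and control grey, shapes give the replicate number and lines join arrays of the same number. AT3G13610, AT3G12900 and AT3G07720 lie lower on the cadmium than on the control array in replicates 1 and 3, and higher in replicate 2.

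AT3G13610 (F6'H1) encodes the feruloyl-CoA hydroxylase that opens the route to scopoletin, the central coumarin of Arabidopsis roots. Its signals were 3776, 2967 and 3529 on cadmium arrays 1, 2 and 3 and 7885, 1295 and 8430 on control arrays 1, 2 and 3. In replicates 1 and 3 the cadmium arrays lay below both control arrays, and in replicate 2 the cadmium array was the higher. The control arrays spread widely because of replicate 2, with a mean log2 signal of 11.73 ± 0.18 on cadmium and 12.11 ± 1.53 on control arrays (SD, n = 3 each). With replicate 2 rescaled to the trimmed mean of the others, its signals were 6524 on the cadmium and 2997 on the control array. The cadmium array of replicate 2 was then above the other cadmium arrays, and the control array of replicate 2 below every other array.

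AT3G13610 fell 2.23-fold with cadmium within replicates 1 and 3 (log2 difference -1.16 ± 0.16 SE, 95% interval -1.57 to -0.75, adjusted p = 0.0313, limma with Benjamini-Hochberg adjustment over 15909 probe sets). It was lower on the cadmium array by -1.06 in replicate 1 and -1.26 in replicate 3, against medians over all tested probe sets of 0.29 and 0.16. In replicate 2 the difference was 1.195, or 2.29-fold higher on the cadmium array, beside a median of -0.11. The call in replicates 1 and 3 rests on 4 arrays, and it ended without cadmium array 1 (adjusted p = 0.145), cadmium array 3 (adjusted p = 0.159) or control array 1 (adjusted p = 0.0510), though not without control array 3 (adjusted p = 0.0431). It also ended with no filter on low signals (adjusted p = 0.05002) and with no intensity trend in the variance (adjusted p = 0.0711).

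AT3G12900 encodes the hydroxylase that turns scopoletin into fraxetin, a coumarin that mobilises iron. Its signals were 162, 767 and 92.3 on cadmium arrays 1, 2 and 3 and 183, 74.8 and 723 on control arrays 1, 2 and 3. The gene was thus high on only 2 arrays, cadmium 2 and control 3, and replicate 1 held nearly the same signal in both conditions. Cadmium minus control on the log2 scale came to -0.17, 3.36 and -2.97 in replicates 1, 2 and 3. In replicate 2 that was 10.2-fold higher on the cadmium array, above 99.3% of all tested probe sets in that pair. In replicate 3 it was 7.83-fold lower, with only 1.13% of probe sets further down. Within replicates 1 and 3 the difference was -1.57 (95% interval -3.34 to 0.19) and did not pass the test (adjusted p = 0.243).

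AT1G47400 encodes a short peptide of the IRONMAN family, which signals iron shortage. Its signals were 130, 38.1 and 13.3 on cadmium arrays 1, 2 and 3 and 280, 37.3 and 84.5 on control arrays 1, 2 and 3. The cadmium array was the lower in replicates 1 and 3, and the pair of replicate 2 was nearly equal (83.8 on the cadmium and 86.3 on the control array after rescaling). The log2 differences were -1.11, 0.031 and -2.66 in replicates 1, 2 and 3. The groups of replicates 1 and 3 overlapped, since cadmium array 1 was above control array 3, and the difference of -1.89 (95% interval -4.94 to 1.17) did not pass (adjusted p = 0.384, limma). It rested on single arrays, with -3.53 without cadmium array 1 and -0.25 without cadmium array 3. The gene was dim, and both arrays of replicate 2 and cadmium array 3 were under 62.1, the 30th percentile of all signals. With signals under that value set to it, the difference shrank to -0.78 (adjusted p = 0.520). A related peptide gene, AT1G47395, is the next annotated locus. Whether its transcript binds the same probes was not tested.

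AT3G07720 encodes a protein with kelch repeats and is a common marker of iron deficiency. Its signals were 538, 1241 and 610 on cadmium arrays 1, 2 and 3 and 1024, 185 and 2311 on control arrays 1, 2 and 3. Both cadmium arrays lay below both control arrays in replicates 1 and 3, and the order was the opposite in replicate 2. The log2 differences were -0.93, 2.75 and -1.92 in replicates 1, 2 and 3, so the cadmium array was 1.90-fold and 3.79-fold lower in replicates 1 and 3 and 6.72-fold higher in replicate 2. Within replicates 1 and 3 the difference was -1.43 ± 0.41 SE (95% interval -2.47 to -0.38). Its interval lay below 0, but the adjusted p over all probe sets was 0.124.

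AT5G05250 and AT3G61930 encode proteins of unsettled function whose transcripts accumulate in roots short of iron. AT5G05250 had signals of 136, 58.0 and 68.9 on cadmium arrays 1, 2 and 3 and 73.2, 145 and 85.9 on control arrays 1, 2 and 3. It had no common direction in replicates 1 and 3 (log2 differences 0.90 and -0.32), and in replicate 2 it was lower on the cadmium array (-1.32). AT3G61930 had signals of 95.02, 128 and 88.6 on cadmium arrays 1, 2 and 3 and 90.7, 48.0 and 117 on control arrays 1, 2 and 3. Its differences were 0.067 and -0.40 in replicates 1 and 3 and 1.41 in replicate 2. The fitted differences within replicates 1 and 3 were 0.29 (95% interval -0.95 to 1.53, adjusted p = 0.748) for AT5G05250 and -0.17 (95% interval -1.11 to 0.78, adjusted p = 0.810) for AT3G61930. Both genes were dim, with a mean signal of 94.5 over the 6 arrays, not far above the filter at 73.0.

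**Figure D2:**
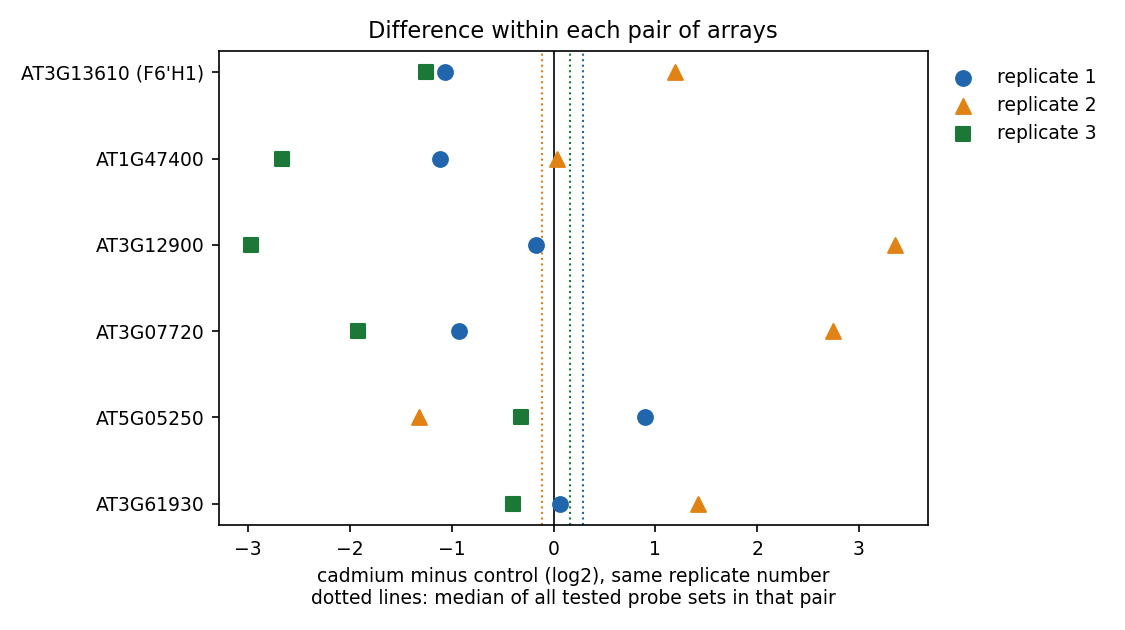
Log2 difference of cadmium minus control within each pair of arrays of the same replicate number for the 6 genes, with dotted lines at the median of all tested probe sets in that pair. Replicate 2 lies at 1.195 or higher for AT3G13610, AT3G12900, AT3G07720 and AT3G61930, near 0 for AT1G47400 and at -1.32 for AT5G05250.

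Taking the 6 genes as a list, all 6 passed the filter on low signals. Within replicates 1 and 3, 1 of 6 passed the threshold as lower, where 3.24% of all tested probe sets did, and 0 of 6 as higher, where 1.29% did. After median centring the shares over all probe sets were 4.28% lower and 0.691% higher, and AT3G13610 still passed (adjusted p = 0.0247). At an unadjusted p under 0.05, limma gave 2 of the 6 genes, AT3G13610 and AT3G07720. The share of all tested probe sets at that level was not counted, so these 2 are not read as a result about the 6 genes. In 3 of 6, namely AT3G13610, AT3G12900 and AT3G07720, both cadmium arrays lay below both control arrays, against 16.9% of all tested probe sets. In none of the 6 did both lie above, against 40.8% of all. Across the 6 genes the median of the log2 differences came to -0.55 (replicate 1), 1.305 (replicate 2) and -1.59 (replicate 3). For all tested probe sets these medians were 0.29, -0.11 and 0.16. Relative to the median difference of 0.22 over all tested probe sets in replicates 1 and 3, AT3G13610 was at -1.38, AT1G47400 at -2.11 and AT3G12900 at -1.80. On the same scale AT3G07720 was at -1.65, AT5G05250 at 0.064 and AT3G61930 at -0.39.

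Over all 6 arrays 0 of the 6 genes passed (limma, with adjusted p-values that round to 1), as did 0% of all tested probe sets, of which 84 had an unadjusted p under 0.05. None of the 6 genes was among those 84. The widest difference was that of AT1G47400 at -1.25 (95% interval -3.26 to 0.76), and AT3G12900 and AT3G07720 came out near 0 (0.072 and -0.034). In all 6 genes the groups of 3 arrays overlapped. Over all tested probe sets the groups did not overlap for 0.371% with cadmium lower and 0.71% with cadmium higher. Exact two-sided permutation tests over arrays gave p = 0.5 to 1 for the 6 genes, where 3 against 3 arrays cannot give less than 0.1.

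The cadmium difference of replicate 2 minus that of replicates 1 and 3 was fitted as an interaction, chosen with the opposite direction of replicate 2 already known, so that it gives the size of that opposition and is no independent evidence of it. Replicate 2 has 1 array in each group, so the error comes from replicates 1 and 3 alone, and the p-values assume that replicate 2 varies like them. That assumption was not tested. In the fit over all 6 arrays with array weights, the weights were 0.118 for cadmium array 2 and 0.197 for control array 2, against 1.32 to 3.56 for the other 4 arrays. These weights also fall with the lower scaling of replicate 2, so they do not measure the spread within it. The interaction was 2.35 ± 0.28 SE for AT3G13610 (adjusted p = 0.0194, limma) and 4.17 ± 0.72 SE for AT3G07720 (adjusted p = 0.0368, limma). These 2 of 6 genes passed as higher, where 5.09% of all tested probe sets did, and 0 of 6 passed as lower, where 3.85% did (8.93% in either direction). After median centring these shares were 5.93% higher and 1.87% lower, with the same 2 genes past the threshold. AT3G12900 had the widest interaction of the 6 genes, 4.93 (95% interval 1.83 to 8.02), but did not pass (adjusted p = 0.0684). AT3G61930 was at 1.58 (adjusted p = 0.148), AT1G47400 at 1.92 (adjusted p = 0.587) and AT5G05250 at -1.61 (adjusted p = 0.234). Both calls ended without cadmium array 1 (adjusted p = 0.0637 for AT3G13610 and 0.0945 for AT3G07720) or cadmium array 3 (adjusted p = 0.0684 and 0.0883). In the deposited signals 4 of the 6 genes were lower on the cadmium arrays of replicates 1 and 3 and higher on that of replicate 2, a pattern that held for 18.8% of all tested probe sets, and its mirror image for 40.9%. After rescaling, a check chosen after seeing the data, it held for 3 of the 6 genes, without AT1G47400, and for 18.1% of all tested probe sets, and its mirror image for 43.1%.

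Other genes of iron nutrition and coumarin synthesis came from lists of 80 loci. The annotation gave 19 of them a probe set of their own, and 17 were tested. It named no gene for 8730 of 22746 probe sets, so a locus left out here may still be measured on the array. In none of these lists did a gene pass the threshold, over all 6 arrays or within replicates 1 and 3 (limma). At an unadjusted p under 0.05 these fits gave 0 and 2 of the 17. For replicates 1 and 3 the share of all tested probe sets at that level was not counted. The groups of replicates 1 and 3 did not overlap for 5 of the 17 on the lower side, against 16.9% of all tested probe sets, and for 1 on the higher side, against 40.8%. The median difference of the 17 genes within replicates 1 and 3 was -0.12, beside 0.22 for all tested probe sets.

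**Figure D3:**
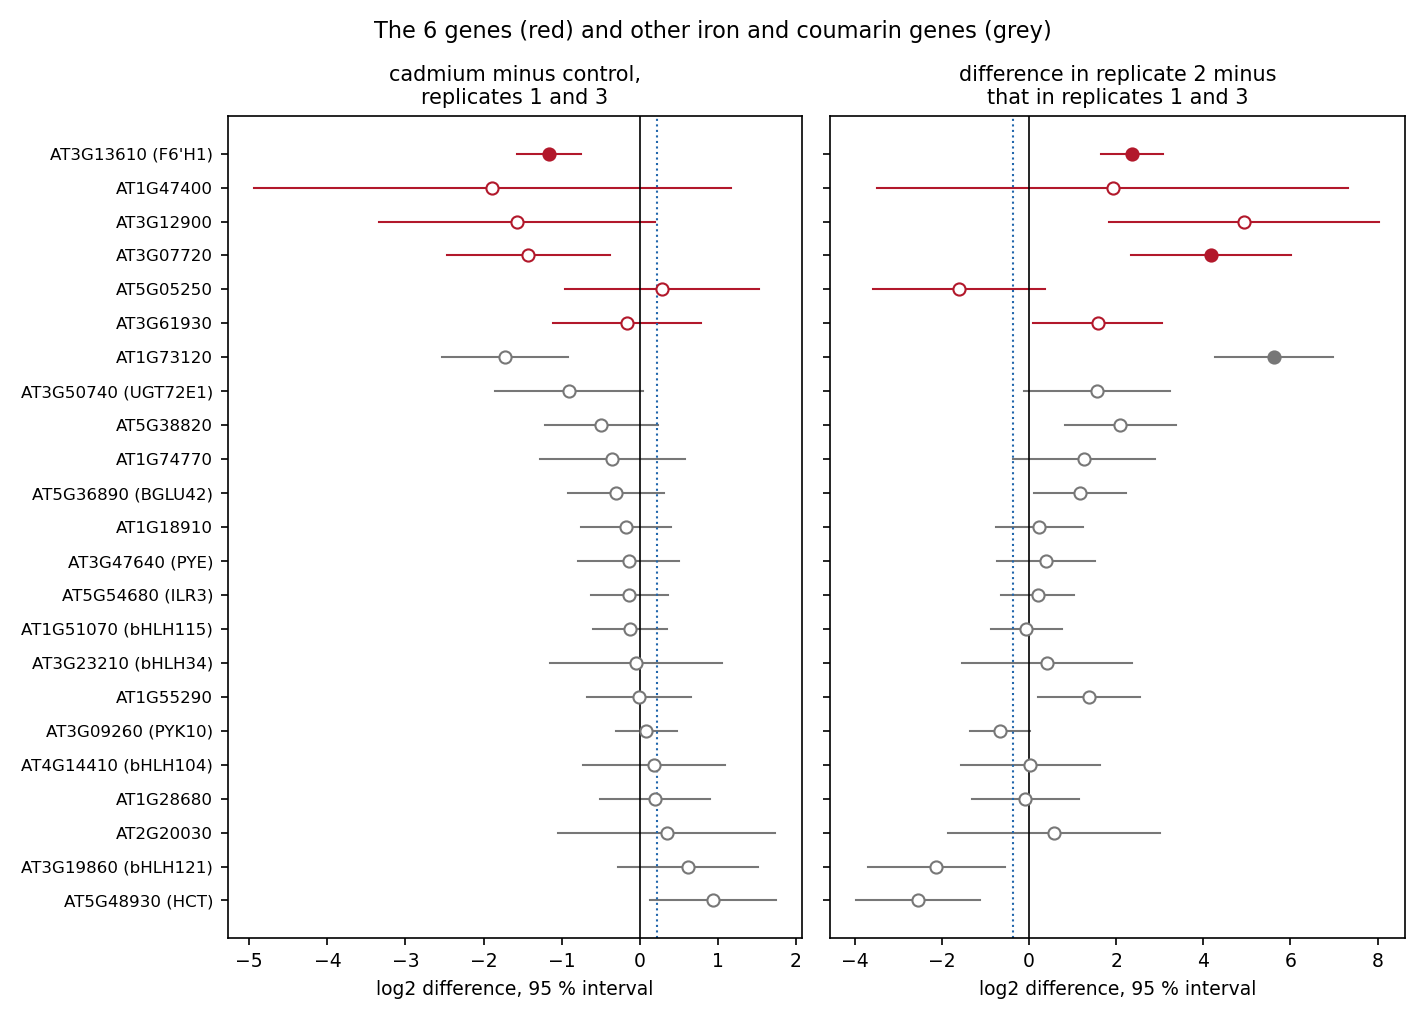
Fitted log2 differences with 95% intervals for the 6 genes (red) and 17 other iron and coumarin genes (grey), for cadmium minus control within replicates 1 and 3 (left) and for the difference in replicate 2 minus that in replicates 1 and 3 (right). Filled points have an adjusted p under 0.05, and dotted lines mark the median of all tested probe sets, 0.22 and -0.36. Filled points are AT3G13610 on the left, and AT3G13610, AT3G07720 and AT1G73120 on the right.

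Among the 4 other tested root transcripts known to rise in iron deficiency, AT1G73120 differed most. Its signals were 95.7, 340 and 69.0 on cadmium arrays 1, 2 and 3 and 248, 22.8 and 290 on control arrays 1, 2 and 3. The cadmium array was lower in replicates 1 and 3 and higher in replicate 2, as for AT3G07720. The difference within replicates 1 and 3 was -1.72 (95% interval -2.53 to -0.92, adjusted p = 0.0514), and the interaction was 5.62 (adjusted p = 0.0154). UGT72E1, a glucosyltransferase of monolignols, and AT5G38820 were named after their values were seen, because their groups did not overlap in replicates 1 and 3. Their differences there were -0.90 (adjusted p = 0.219) and -0.49 (adjusted p = 0.342).

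Apart from AT3G12900, the tested enzymes around F6'H1 had smaller differences than it in replicates 1 and 3, and none passed the test. BGLU42, a beta-glucosidase that releases scopoletin from its glucoside before secretion, had the widest difference of the 4 other tested coumarin genes, -0.30 (adjusted p = 0.480), and its groups in replicates 1 and 3 did not overlap. Its signals were 386, 249 and 309 on cadmium arrays 1, 2 and 3 and 390, 137 and 465 on control arrays 1, 2 and 3. AT1G55290, the close paralogue of F6'H1, had -0.0097 (95% interval -0.67 to 0.65, adjusted p = 0.987). HCT, a shikimate transferase of the general phenylpropanoid route, was the only tested gene of the steps before coumarins. Its difference was 0.94 (adjusted p = 0.161) in replicates 1 and 3, where both cadmium arrays lay above both control arrays, and -1.60 in replicate 2.

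None of the tested regulators of the iron response passed the test. Of 8 tested regulators, bHLH121, which acts near the top of the bHLH cascade, had the widest difference, 0.61 (adjusted p = 0.340) in replicates 1 and 3 and -1.51 in replicate 2. PYE, a repressor in the same cascade, had -0.14 (adjusted p = 0.764), and AT1G74770, a ubiquitin ligase of the BRUTUS group, -0.35 (adjusted p = 0.590). For bHLH115, an activator, the groups of replicates 1 and 3 did not overlap, with a difference of -0.12 (adjusted p = 0.709). BHLH101, a partner of the central iron regulator, was under the filter and was not tested. Its signals were 5.08, 13.9 and 7.73 on cadmium arrays 1, 2 and 3 and 36.2, 18.1 and 35.4 on control arrays 1, 2 and 3. All 6 values were under 62.1, and the cadmium array was the lower in each pair. AT3G58060, a manganese transporter induced by iron shortage, was also under the filter, with 59.0, 66.1 and 5.91 on cadmium arrays 1, 2 and 3 and 109, 23.0 and 79.5 on control arrays 1, 2 and 3.

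None of the 5 root markers with a probe set passed the test. For 3 of the 5 both cadmium arrays of replicates 1 and 3 lay above both control arrays, against 40.8% of all tested probe sets. XTH26, a cell wall enzyme of root hairs, had the widest difference. Its signals were 130, 83.5 and 362 on cadmium arrays 1, 2 and 3 and 3.63, 42.8 and 16.1 on control arrays 1, 2 and 3. It was higher on the cadmium array in each pair (log2 differences 5.16, 0.96 and 4.49), the groups of 3 arrays did not overlap, and all 3 control signals were under 62.1. The difference was 4.83 within replicates 1 and 3 (adjusted p = 0.0778) and 3.54 over all 6 arrays (unadjusted p = 0.0021, limma, with an adjusted p that rounds to 1). AT1G30870, a root hair peroxidase, gave signals of 1172, 450 and 2296 on cadmium arrays 1, 2 and 3 and 337, 498 and 881 on control arrays 1, 2 and 3. The 5 markers summed to 14534, 4291 and 16888 on cadmium arrays 1, 2 and 3 and 13604, 6025 and 12595 on control arrays 1, 2 and 3, and none was at 0. Their part in the values of the 6 genes was not tested. In whole roots, fewer cells of a type and less RNA per cell cannot be told apart.

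The 6 genes did not share 1 profile. Over the 6 arrays, on log2 signals minus the array median, AT3G07720 correlated with AT3G12900 at r = 0.91 and with F6'H1 at r = 0.88, and AT3G12900 with AT3G61930 at r = 0.91. AT1G47400 had r = 0.15 to 0.51 with the other genes. AT5G05250 ranged from r = -0.45 with F6'H1 to 0.22 with AT3G61930. All these points share 6 arrays and their scaling.

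The genes most like each of the 6 were found among 8605 genes by the same measure, so high values are to be expected at the top of so many. For F6'H1 they were AT1G21590 (r = 0.993), AT5G67340 (r = 0.991) and SIR, the sulfite reductase of sulfate assimilation (r = 0.990). SIR had signals of 3448, 1691 and 3141 on cadmium arrays 1, 2 and 3 and 3776, 1297 and 4136 on control arrays 1, 2 and 3. It followed F6'H1 in order but over a narrower range. AT5G67340 had signals of 226, 282 and 172 on cadmium arrays 1, 2 and 3 and 626, 62.2 and 866 on control arrays 1, 2 and 3. Of the 3 genes, only AT5G67340 passed within replicates 1 and 3 (-1.90, adjusted p = 0.0347, limma), where 3.24% of all tested probe sets passed as lower. The 3 genes were picked for likeness to F6'H1 on these same arrays, so that call is no independent result.

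**Figure D4:**
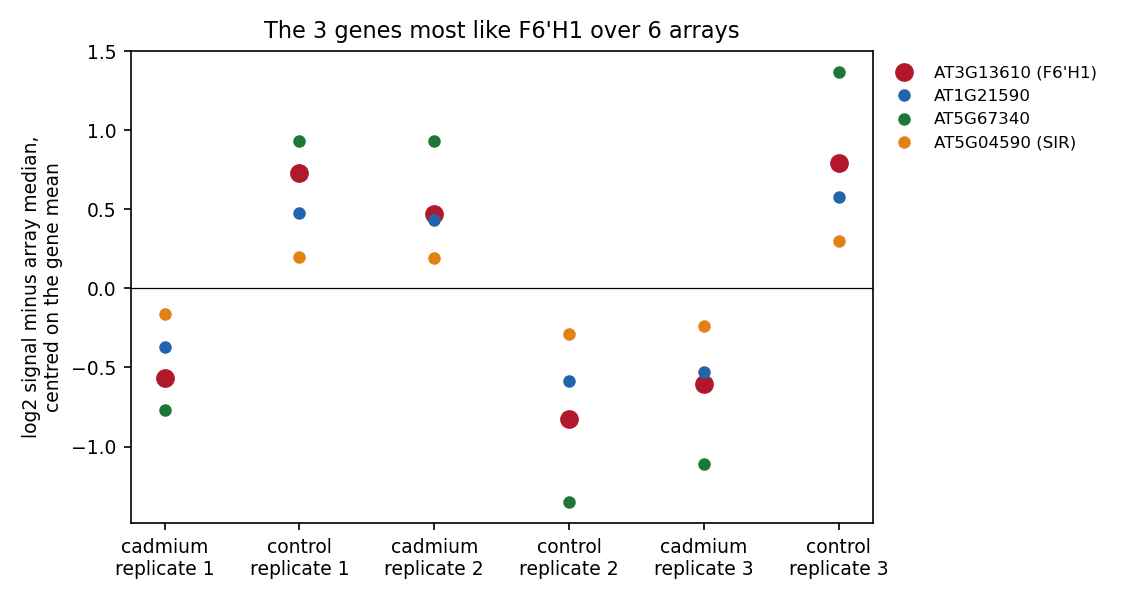
Log2 signal minus the array median, centred on each gene's mean, for F6'H1 and the 3 genes with the highest correlation with it, on each of the 6 arrays. All 4 genes lie above their mean on control arrays 1 and 3 and cadmium array 2, and below it on the other 3 arrays.

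For AT3G12900 the most alike were AT3G23260, AT2G35460 and AT2G05720 (r = 0.987 to 0.990), and for AT3G07720 they were SEC1B, a protein of vesicle fusion, AT4G27290 and AT4G17070 (r = 0.983 to 0.987). AT3G61930 was most like AT4G36140, SCPL30 and AT3G53580 (r = 0.986 to 0.998). AT1G47400 was most like AT1G54290, AT1G51350 and AT4G23720 (r = 0.965 to 0.972), and AT5G05250 most like AT1G06560, AT1G12250 and AT4G11970 (r = 0.964 to 0.972). None of these 15 genes passed the test within replicates 1 and 3.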

How the data were processed

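The deposited table holds 1 linear intensity per probe set (22810) and array (6), made by the authors with MAS5 per the submitters' processing notes; its version and scaling target are not given in the sources used here. Titles gave the group and replicate number of each array, and the sample descriptions number the replicates in another order. A signal of 0 (7 cases) was replaced by the lowest positive signal of its array. After log2 transformation, the 64 control probe sets and those with a mean signal under the 30th percentile (73.0) were left out, and 15909 were tested with limma 3.58.1 in R 4.3.3 (lmFit, eBayes with an intensity trend, two-sided, Benjamini-Hochberg, threshold 0.05). Residual degrees of freedom were 4 over all 6 arrays and 2 in the other fits. P-values from limma set each difference against the spread between arrays, with the variance of each probe set moderated by that of all tested probe sets. The number of arrays limits precision.

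Of 22746 probe sets, 13513 were named with 1 gene, 503 with several and 8730 with none. Loci were looked up by gene identifier in the RefSeq table of TAIR10.1. Members, lists, the fit within replicates 1 and 3 and the interaction were chosen with earlier results of these data known. Named genes are the 6 loci, list genes past the threshold, otherwise the widest in replicates 1 and 3 in each list, and the 3 most correlated genes. PYK10, AT1G30870, AT1G55290, PYE, AT1G74770, bHLH115, BHLH101, AT3G58060, UGT72E1 and AT5G38820 fall outside this rule and were chosen after their values were seen. The lists of iron uptake at the root surface and of iron storage had no probe set that the annotation named with 1 of their loci alone. That of iron movement had no tested one, and these lists are not analysed here. With 8730 probe sets unnamed, this does not show that the array lacks these genes. The fits were tested on simulated data.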

Additional observations from a re-analysis of the deposited data

Results flagged for a closer look

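For 2 of the 6 genes the interaction, the cadmium difference in replicate 2 minus that in replicates 1 and 3, passed the threshold (limma, adjusted over 15909 probe sets). It was 2.35 (log2) for AT3G13610 and 4.17 for AT3G07720. For both genes the cadmium array was higher than its control in replicate 2 and lower in replicates 1 and 3. The fit was chosen with the opposite direction of replicate 2 known, and it assumes that replicate 2, with 1 array in each group, varies like the others, which was not tested. It called 8.93% of all tested probe sets, in either direction.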

How the results depend on the processing

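Over all 6 arrays, 0 of the 6 genes passed under every alternative that kept replicate 2, and 1 without replicate 2; the count over all probe sets was 1 without control array 1, 1560 with array weights and 721 without replicate 2, so single arrays or replicates left out gave 0 to 721. The direction over all 6 arrays depended on single arrays for all but AT1G47400. Ranges with single arrays or whole replicates left out were -1.26 to 0.092 for AT3G13610, -1.57 to 1.59 for AT3G12900 and -2.09 to -0.45 for AT1G47400. They were -1.43 to 0.91 for AT3G07720, -0.82 to 0.29 for AT5G05250 and -0.17 to 0.74 for AT3G61930. Single arrays alone gave a narrower range for AT3G12900, from -0.81 without cadmium array 2 to 0.95 without control array 3. AT3G12900 turned to -0.069 with median centring, and with array weights AT3G12900, AT5G05250 and AT3G61930 turned to -1.16, 0.46 and -0.080. Within replicates 1 and 3, 0 of the 6 genes passed with no filter on low signals or with no intensity trend (353 probe sets in all), and 0 to 2 with single arrays left out (142 to 1266 probe sets). There AT5G05250 ranged from -0.20 to 0.78, AT3G61930 from -0.35 to 0.017, AT1G47400 from -3.53 to -0.25, AT3G12900 from -2.56 to -0.58 and AT3G07720 from -2.01 to -0.84. AT3G07720 and AT3G12900 passed without control array 1 (adjusted p = 0.0166 and 0.0352, limma).

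With a replicate block, 3 of the 6 genes passed within replicates 1 and 3 (AT3G13610, AT3G07720 and AT1G47400), among 3521 probe sets, and 0 over all 6 arrays. The balance of calls was then the other way round, with 9.49% of probe sets lower and 12.6% higher. AT1G47400 passed narrowly (adjusted p = 0.0489, limma). Within replicates 1 and 3 the block left fewer residual degrees of freedom than the main fit, so its calls lean more on the variance shared over probe sets. Deviations of arrays with the same number from their group means correlated at 0.11, -0.039 and 0.29 in replicates 1, 2 and 3. Cadmium arrays 1 and 3 correlated best with the control array of the same number, and cadmium array 2 with control array 1 (0.16). The numbers were not used as a block in the main fits, since no label says what they stand for.

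In the interaction, quantile normalization gave 4 of the 6 genes as higher (AT3G12900 and AT3G61930 were added), among 2045 probe sets in all. It called 6.67% of all tested probe sets as higher and 6.19% as lower, against 5.09% and 3.85% in the main fit. No intensity trend gave 1 of the 6 genes (815 probe sets in all). No filter gave 916 probe sets. Leaving out single arrays of replicates 1 and 3, an alternative added after seeing the data, gave 0 to 3 of the 6 genes and 313 to 2363 probe sets, with AT1G47400 at 0.28 to 3.56. The 6 genes had 1 probe set each, so another probe set could not be tried. The cause of these changes was not tested.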
